A study of Mus musculus with 198 samples.

Results

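Gm-number symbols are placeholder names of mouse gene models, given to loci predicted from sequence or transcript evidence before any function is known. The deposited table of gene methylation holds 9010 gene rows named Gm followed by digits only, among 34193 gene rows. Of these, 2738 (30.4%) had a value in all 8 deep libraries at both CA and CG sites and are the models described here, against 18318 of the 25183 other gene rows (72.7%). The models made up 13% of the 21056 rows with complete values, and their numbers ran from Gm46 to Gm17735. Among the remaining Gm rows, 6137 had no value in any of the 16 columns and 135 had values in part of them.

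The 8 libraries were whole-genome bisulfite libraries of cerebral cortex from C57BL/6J mice aged 8 weeks. They came from 4 heterozygous Dnmt3a knockouts (hKO), which carry 1 intact copy of the gene, and from 4 wild types (WT). Each genotype had 2 males (animals 1 and 2) and 2 females (animals 3 and 4). The tissue came from littermates per the labels' protocols, which name no allele, driver or promoter for the knockout, and the labels do not say which animals were littermates. Coverage is labelled as 6.4 to 7.8 genome equivalents for the whole set. How many cytosine calls lie behind a value is not known, and intervals for counting error could not be given.

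Levels are the percentage of cytosines called methylated over a gene row, at CA sites (mCA) or at CG sites (mCG). Methylation at CG sites is placed across most of the genome in all tissues. Methylation at CA sites builds up in neurons after birth, and the enzyme DNMT3A, encoded by Dnmt3a, deposits it. Within a gene the level tends to follow that of the surrounding chromosomal region. Dnmt3a itself had an mCA of 0.794, 0.715, 0.881 and 0.655% in the hKO animals, against 1.14, 1.04, 1.52 and 1.30% in the WT animals (difference -0.49 percentage points, SE 0.14, adjusted limma p = 0.0115). Methylation of the locus does not show whether a copy is missing. The tissue label was set against marker genes whose bodies are commonly low in mCA where they are expressed. The median mCA of 8 cortical neuron genes was 0.879% in hKO and 1.58% in WT, that of 6 measured non-brain genes (of 8) 1.72% in hKO and 3.11% in WT, and that of 6 glial genes 1.52% in hKO and 3.02% in WT. The neuron list had the lowest median in both genotypes, but its members ranged from 0.858 to 5.33% in WT, wider than the non-brain (2.45 to 4.50%) and glial lists (1.73 to 4.33%).

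Promoter windows are shown for models on which the results turn: Gm16555, Gm7932 and Gm13752 had some of the largest falls in mCA, Gm4724 was listed at 0 in all 4 hKO libraries, and Gm7457 and Gm1661 were among the steadiest across animals. Each window runs from 250 bases before to 50 bases after the annotated start in RefSeq's GRCm38.p6 table, 5′ to 3′ on the gene's strand, with CG and CA dinucleotides in capitals. The deposited values are on mm9 and cover gene rows, so the windows show sequence and not the measured interval.
Gm16555 (chr17:49821756-49822055, minus strand, 3 CG): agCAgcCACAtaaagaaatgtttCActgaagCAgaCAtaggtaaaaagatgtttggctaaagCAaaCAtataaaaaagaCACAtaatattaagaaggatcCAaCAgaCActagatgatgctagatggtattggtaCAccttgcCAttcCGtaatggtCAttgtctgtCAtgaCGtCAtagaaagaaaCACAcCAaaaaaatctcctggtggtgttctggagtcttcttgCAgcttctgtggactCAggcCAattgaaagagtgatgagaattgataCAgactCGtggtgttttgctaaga
Gm7932 (chr6:48860079-48860378, plus strand, 7 CG): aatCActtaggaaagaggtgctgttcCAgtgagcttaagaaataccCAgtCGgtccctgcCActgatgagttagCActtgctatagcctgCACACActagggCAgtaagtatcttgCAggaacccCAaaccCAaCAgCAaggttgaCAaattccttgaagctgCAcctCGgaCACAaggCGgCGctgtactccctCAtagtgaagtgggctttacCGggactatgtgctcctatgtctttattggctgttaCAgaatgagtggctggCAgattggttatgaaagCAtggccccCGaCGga
Gm13752 (chr2:80391114-80391413, plus strand, 2 CG): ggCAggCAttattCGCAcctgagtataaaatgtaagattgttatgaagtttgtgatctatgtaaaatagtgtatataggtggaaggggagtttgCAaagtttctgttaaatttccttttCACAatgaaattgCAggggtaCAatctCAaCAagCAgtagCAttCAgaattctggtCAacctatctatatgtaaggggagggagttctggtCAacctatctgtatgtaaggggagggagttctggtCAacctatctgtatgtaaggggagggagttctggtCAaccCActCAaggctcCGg
Gm4724 (chr2:175435728-175436027, minus strand, 4 CG): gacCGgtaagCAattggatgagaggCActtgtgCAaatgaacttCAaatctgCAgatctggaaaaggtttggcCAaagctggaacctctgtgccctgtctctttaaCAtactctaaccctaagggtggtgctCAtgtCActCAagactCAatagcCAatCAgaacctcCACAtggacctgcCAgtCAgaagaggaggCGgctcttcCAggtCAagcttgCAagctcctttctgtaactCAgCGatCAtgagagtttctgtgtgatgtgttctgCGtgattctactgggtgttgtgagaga
Gm7457 (chr6:142813981-142814280, plus strand, 8 CG): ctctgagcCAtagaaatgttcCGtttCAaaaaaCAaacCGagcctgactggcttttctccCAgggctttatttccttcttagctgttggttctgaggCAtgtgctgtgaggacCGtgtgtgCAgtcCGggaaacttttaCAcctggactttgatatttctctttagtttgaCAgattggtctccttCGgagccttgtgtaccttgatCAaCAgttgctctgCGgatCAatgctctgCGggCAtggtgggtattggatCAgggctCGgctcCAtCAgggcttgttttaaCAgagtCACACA
Gm1661, RefSeq Armh1 (chr4:117251868-117252167, minus strand, 26 CG): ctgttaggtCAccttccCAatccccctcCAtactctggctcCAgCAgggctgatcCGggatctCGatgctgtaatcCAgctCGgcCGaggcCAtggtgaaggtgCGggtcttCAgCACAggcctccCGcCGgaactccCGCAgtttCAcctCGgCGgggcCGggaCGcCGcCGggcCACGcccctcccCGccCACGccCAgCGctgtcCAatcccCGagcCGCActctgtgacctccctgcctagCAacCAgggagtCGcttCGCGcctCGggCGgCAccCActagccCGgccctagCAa

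The number of CG dinucleotides in these windows ran from 2 in Gm13752 to 26 in Gm1661, whose RefSeq name is Armh1. Windows were found for 1087 of the 2738 models. Their median CG number was 4, against 7 over the 27025 promoters of the table, and 23.5% of them held 10 or more CG, against 43.9% of all promoters; CG reads the same on both strands. Across these 1087 models the CG number of the window did not track the level of the gene row. Its Spearman correlation was 0.0090 with WT mCG and 0.057 with WT mCA, given as descriptions of models that share libraries. The 255 models with 10 or more CG had a median mCA of 1.30% in hKO and 2.33% in WT, the 363 with 4 to 9 CG had 1.49% in hKO and 2.69% in WT, and the 469 with 0 to 3 CG had 1.30% in hKO and 2.33% in WT.

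The median mCA over the models was 1.22, 1.23, 1.50 and 1.14% in the 4 hKO animals, against 2.16, 2.17, 2.70 and 2.19% in the 4 WT animals. The highest hKO animal was below the lowest WT animal, and within each genotype the female animal 3 was the highest. These are bulk tissue values, in which fewer cells carrying the mark and less of the mark per cell cannot be told apart. Means of these medians were 1.27% ± 0.157 in hKO and 2.31% ± 0.264 in WT (SD, n = 4 each). The median over the other genes was lower than that over the models in each of the 8 libraries. The models' median was 111 to 115% of the other genes' median in hKO animals and 113 to 116% in WT animals. In mCG the order was the opposite: the models' median was 97.5 to 97.9% of the other genes' in hKO and 97.7 to 98.2% in WT. No test was made of these differences between lists. The sexes coincide with a difference in the labels' protocols, which name a second sequencer for the females, so sex and sequencer cannot be told apart. Within males the median was 1.23% in hKO and 2.20% in WT, and within females 1.34% in hKO and 2.48% in WT.

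**Figure D1:**
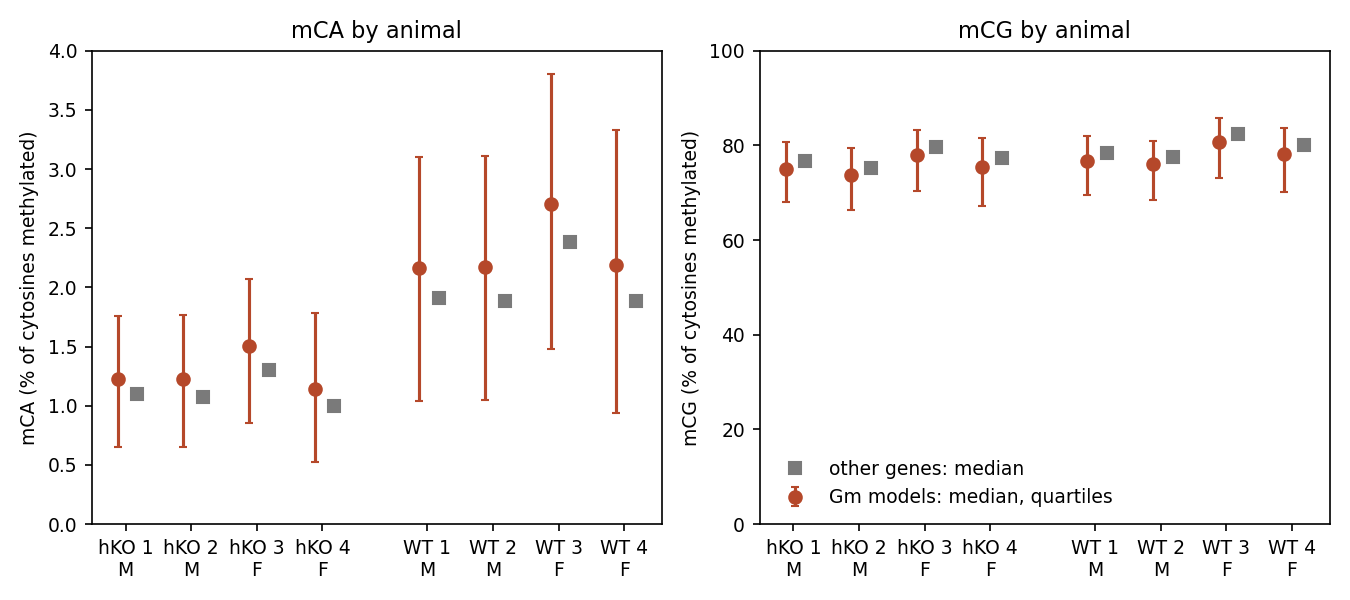
Level of the 2738 models in each animal at CA sites (left) and CG sites (right), in percent of cytosines methylated; circles are medians with quartiles as bars, squares are the medians of 18318 other genes, M and F mark sex. The hKO medians of mCA lie between 1.14 and 1.50%, all below the WT medians. The mCG medians of hKO and WT animals overlap across the sexes, while within each sex the hKO medians are the lower ones.

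Levels of single models were widely spread. The mean mCA per model had a 5th percentile of 0.346%, quartiles of 0.730 and 1.83% and a 95th percentile of 2.74% in hKO. In WT the 5th percentile was 0.434%, the quartiles 1.21 and 3.32% and the 95th percentile 4.85%. The other genes had quartiles of 0.669 and 1.68% in hKO and 1.14 and 3.06% in WT. The order of the models was much the same in both genotypes, with a Spearman correlation of 0.923 between hKO and WT means over 2738 models (0.965 over 18318 other genes), a description only.

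Differences per model were tested with limma on the percentage, fitted over all 21302 gene rows with complete mCA, with Benjamini-Hochberg adjustment over all of them and a threshold of 0.05. Of the 2738 models, 1736 (63.4%) were lower in hKO, against 72.1% of all genes tested, so the share of models called was below the background. Only 2 models (0.073%) were higher, against 0.0329% of all genes (7 genes). In 1441 models (52.6%) all 4 hKO values lay below all 4 WT values, against 64.6% of all genes. In 1 model, Gm15051, all 4 hKO values lay above all 4 WT values, against 0.00939% of all genes (2 genes). Ignoring the threshold, 2581 models (94.3%) had a lower mean in hKO, against 97.1% of all genes. The median difference was -1.02 percentage points over the models and -0.90 over the other genes. These differences are on a scale on which almost all genes fell. When each library was divided by its median over all genes, 0 models and 0 of all genes passed in either direction. When the library median was subtracted instead, 595 models passed as lower and 616 as higher, in place of 1736 and 2. Subtraction takes the same number of points from every row of a library, whatever its level. The shares over all genes are not given for this setting, so the 616 are not read as gains of the models. No model passed for a genotype by sex interaction (smallest adjusted limma p = 0.486; 161 models had an unadjusted p below 0.05, 5.88% against 3.41% of all genes).

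**Figure D2:**
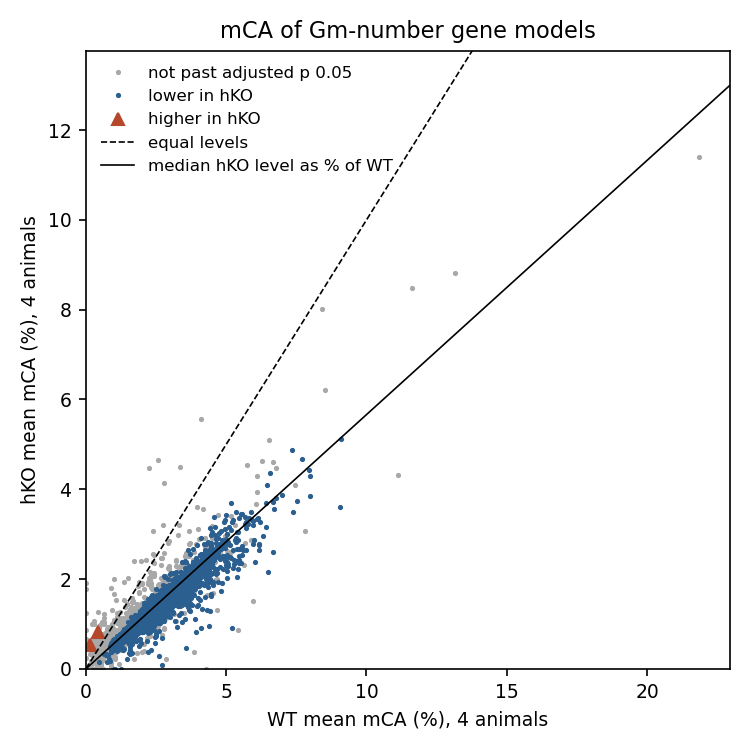
Mean mCA of each of the 2738 models in hKO (vertical, 4 animals) against WT (horizontal, 4 animals), in percent. Blue points are the 1736 models lower in hKO, triangles the 2 higher ones and grey points those that did not pass; nearly all points lie under the dashed line of equal levels and follow the solid line at 56.6% of WT.

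The 6 largest falls in percentage points among models that passed with separate groups were all in highly methylated models. Among the named models, Gm5420, Gm13583, Gm13330 and Gm13535, described below, had larger differences than some of them but did not pass. Gm2670, which had no match in the RefSeq table, had 2.38, 2.62, 5.37 and 4.08% in the hKO animals, against 13.7, 9.26, 6.80 and 6.45% in the WT animals. The groups did not overlap, but the 2 WT males were well above the 2 WT females. The difference was -5.43 points (SE 1.53, adjusted limma p = 0.0105), and with females alone it was -1.90 and did not pass (adjusted limma p = 0.102).

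Gm15634, also unmatched, had 2.36, 1.83, 0.743 and 3.67% in hKO, against 6.75, 7.90, 5.77 and 5.60% in WT. Every WT animal was above every hKO animal, with a difference of -4.35 points (SE 0.69, adjusted limma p = 0.000759). Gm7932, annotated as protein-coding, had 3.68, 3.61, 5.01 and 3.09% in hKO, against 10.8, 5.19, 9.67 and 6.40% in WT. The highest hKO value and the lowest WT value of Gm7932 were close, and the difference was -4.16 points (SE 1.19, adjusted limma p = 0.0113); males alone did not pass (adjusted limma p = 0.160).

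Gm16555 is annotated in RefSeq as a long non-coding RNA and in its table overlaps Kif6, which encodes a kinesin motor protein. It had 1.54, 2.76, 3.06 and 3.09% in hKO, against 7.64, 5.82, 5.69 and 7.59% in WT. The gap between the groups was wider than the range of the hKO animals, and the difference was -4.07 points (SE 0.59, adjusted limma p = 0.000692). Gm13752, another long non-coding RNA, whose nearest measured gene is Frzb, a secreted inhibitor of WNT signalling, had 3.27, 3.06, 4.19 and 3.48% in hKO, against 9.76, 6.68, 6.20 and 6.82% in WT. All WT values of Gm13752 were above all hKO values (difference -3.86 points, SE 0.78, adjusted limma p = 0.00188). Its WT mean of 7.36% compares with 4.29% for Frzb.

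Gm16933 was the highest of these, with 5.14, 4.29, 6.37 and 4.69% in hKO, against 8.17, 9.42, 10.9 and 7.89% in WT (difference -3.97 points, SE 0.98, adjusted limma p = 0.00537). The groups did not overlap. Its hKO mean was 56.4% of the WT mean, near the median over all models, and its difference turned to 0.10 points after library medians were made equal (adjusted limma p = 0.995); females alone did not pass (adjusted limma p = 0.138). The hKO means of the other 5 were 33.1 to 48.1% of WT; none of the 6 passed once library medians were made equal.

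**Figure D3:**
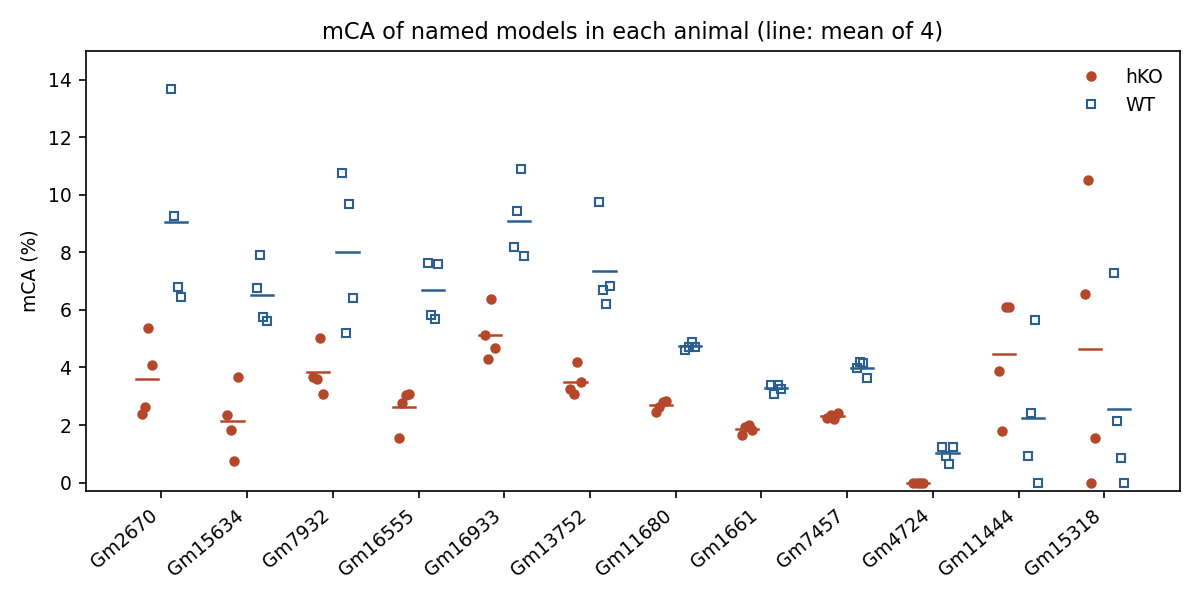
mCA in percent of 12 named models in each animal, hKO as filled circles left of WT as open squares, with a line at the mean of 4 animals. The first 6 are the largest falls among models that passed with separate groups, the next 3 the steadiest models, then Gm4724, listed at 0 in every hKO animal, and last Gm11444 and Gm15318, whose groups overlap.

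Of the 2 models called higher, Gm15051 is listed in RefSeq as Hotairm1, a long non-coding RNA next to the HoxA cluster of developmental transcription factors. It had an mCA of 0.277, 0.631, 0.683 and 0.560% in hKO, against 0.128, 0.267, 0.171 and 0% in WT. The groups were separated by a small gap at levels far below the median model (difference 0.40 points, SE 0.12, adjusted limma p = 0.0132). All 4 WT values lay below the 0.362% measured at CC sites in shallow WT libraries, described below. Its mean over the 8 libraries, 0.340%, was under the 0.5% limit of the filter on low values, which left this model out. Neither sex alone passed for Gm15051 (adjusted limma p = 0.218 in males and 0.0900 in females). Its mCG was also low, 6.21% ± 0.946 in hKO and 7.30% ± 3.81 in WT (SD, n = 4 each). Gm14974, the other one, named here after its values were seen, had 0.854, 0.565, 1.03 and 0.848% in hKO, against 0.286, 0.159, 0.671 and 0.602% in WT. Its groups overlapped (difference 0.39 points, SE 0.15, adjusted limma p = 0.0422).

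The relative level, the hKO mean as a percentage of the WT mean, had a median of 56.6% over the 2725 models with a WT mean above 0 and of 56.6% over the other genes. The interquartile range was wider for the models, 51.5 to 65.5%, against 53.3 to 61.4% for the other genes. The ratio depended on level. Models with a mean over the 8 libraries below 0.5% had a median ratio of 83.8% (277 models), and those from 0.5 to 1% had 65.5% (427 models). From 1% upwards the medians of the 5 bins lay between 54.9 and 56.7%. Other genes showed the same steps, 77.3% below 0.5%, 61.4% from 0.5 to 1% and 55.03 to 58.1% above.

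Shallow libraries of 8-week cortex gave a measure of the level at CC sites, where little methylation is placed, of 0.267% ± 0.0599 in hKO (SD, n = 7 animals) and 0.362% ± 0.0602 in WT (SD, n = 11 animals). In the lowest bin, mean mCA was 0.349% in hKO and 0.427% in WT, close to those CC levels. With the CC level of each genotype subtracted, the median ratio over all models was 53.4%, that of the bin from 0.5 to 1% was 59.6% and that of the lowest bin 108%. Other genes had 52.7, 53.5 and 77.9% in the same order, so the steps of the 2 lists no longer matched. Each of these medians is over rows with a WT mean above the CC level. In that lowest bin 40 models in hKO and 59 in WT lay below the CC level, so a ratio there has little of the mark behind it. The CC level comes from other libraries and was itself lower in hKO, so it cannot be read as a background equal in both genotypes. Its part in the ratios of the deep set was not tested.

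**Figure D4:**
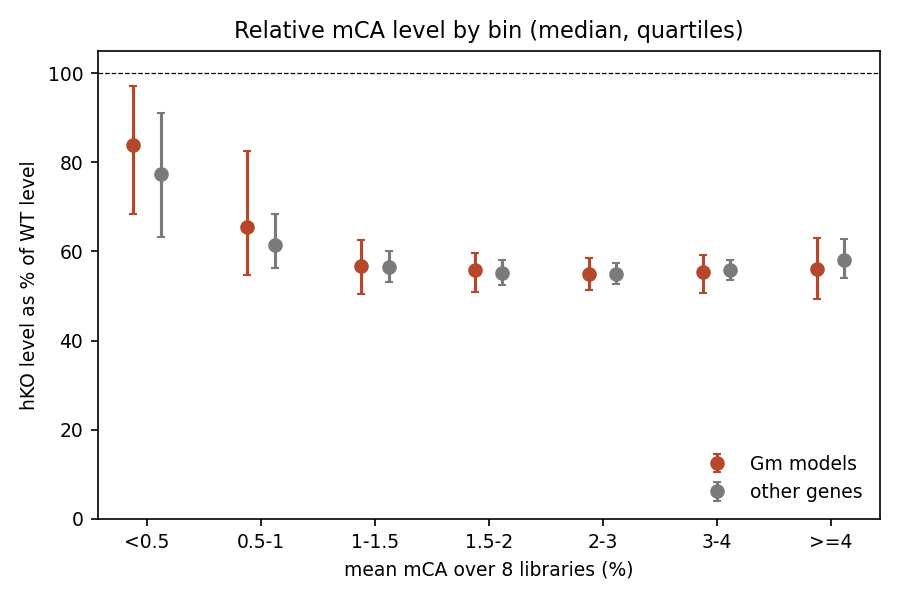
hKO level as a percentage of the WT level (median, with quartiles as bars) by mean mCA over 8 libraries, for the models and for other genes; the dashed line marks equal levels. Both lists lie near 55% from 1% mCA upwards and rise in the lowest 2 bins, with wider bars for the models in each bin.

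Extreme ratios were commoner among the models. Among the 2163 with a WT mean of at least 1%, 132 (6.10%) had a ratio under 40%, against 2.23% of other genes, and 50 (2.31%) had one of at least 90%, against 0.619% of other genes. The lowest ratios among models that passed with separate groups were those of Gm4724, Gm11239, Gm9881 and Gm8765. Gm4724, annotated as protein-coding, was listed at 0% in all 4 hKO animals, against 1.25, 0.943, 0.643 and 1.25% in WT (difference -1.02 points, SE 0.15, adjusted limma p = 0.000692). Gm11239 had 0, 0.369, 0 and 0% in hKO, against 2.60, 1.04, 2.15 and 5% in WT (difference -2.60 points, SE 0.68, adjusted limma p = 0.00719). In both models every WT animal was above every hKO animal, while the WT values of Gm11239 spanned a wide range. Gm11239 did not pass in males alone (adjusted limma p = 0.0916).

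Gm9881 had 0, 1.08, 0.775 and 0% in hKO, against 3.92, 2.11, 4.29 and 3.90% in WT (difference -3.09 points, SE 0.47, adjusted limma p = 0.000694). Gm8765 had 0.563, 0, 0.294 and 0% in hKO, against 1.07, 1.09, 1.84 and 1.83% in WT (difference -1.25 points, SE 0.23, adjusted limma p = 0.00120). The groups of both were separate, and Gm9881 did not pass in males alone (adjusted limma p = 0.0671). With library medians subtracted, Gm4724, Gm11239 and Gm8765 no longer passed (adjusted limma p = 0.718, 0.0983 and 0.184), and none of the 4 passed with medians made equal. Each of these 4 models held 0 in 2 to 4 hKO libraries.

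At the other end, the 4 highest ratios among models with a WT mean of at least 1% belonged to Gm11358 (200%), Gm11444 (199%), Gm15318 (181%) and Gm11766 (165%). None passed the test (adjusted limma p = 0.146 to 0.469), and in all 4 the groups overlapped. Gm11444 had 3.88, 1.79, 6.09 and 6.11% in hKO, against 0.935, 2.41, 5.64 and 0% in WT. Gm15318, a long non-coding RNA in RefSeq, had 6.55, 10.5, 0 and 1.54% in hKO, against 7.28, 2.15, 0.847 and 0% in WT. Each spanned most of its range within a single genotype. Gm11358 was at 0 in 2 hKO and 3 WT libraries, and Gm11444 passed as higher in hKO when WT animal 3 was left out (difference 3.35 points, adjusted limma p = 0.0340).

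Values of exactly 0 in mCA were found in 339 models (12.4%) in at least 1 library, against 5.46% of other genes. In 155 of the 339 this was a single library, and 5 models were at 0 in all 8. A further 13 (0.475%) were at 0 in all 4 hKO libraries but not in all 4 WT libraries, against 0.158% of other genes. The reverse held for 8 (0.292%), against 0.0873% of other genes. Some of these models also held a 0 in part of the libraries of the other genotype. More libraries at 0 in hKO than in WT were found for 175 models (6.39%), and the reverse for 92 (3.36%). Among other genes the numbers were 510 (2.78%) and 274 (1.50%), so the direction was the same in both lists. The share of models at 0 was 2.89, 2.63, 2.92 and 8.58% in the hKO libraries, against 3.21, 2.19, 1.28 and 6.17% in the WT libraries. Female animal 4 of each genotype had the highest share, also among other genes (3.75% in hKO and 2.50% in WT). Their coverage relative to the other libraries is not given per library in the sources used here, so its part in the zeros was not tested.

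Zeros were not confined to models of low level. Among the 339 the median mCA was 0.538% in hKO and 0.860% in WT, but the highest WT mean was 7.79%. Of these 339, 49 (14.5%) were called lower, against 1687 of the 2399 models with no 0 (70.3%). The 72.1% of all genes tested takes in genes with a 0, so it is not a like measure for the models without one. Gm13535, a pseudogene, was at 0 in all 4 hKO libraries, against 1.80, 2.04, 0 and 13.3% in WT. It did not pass (difference -4.29 points, SE 2.44, adjusted limma p = 0.135), and 1 WT library carried most of its mean. Without that library, WT animal 4, it passed with a smaller difference (-1.28 points, adjusted limma p = 0.0195). It also passed in males alone (adjusted limma p = 0.00761) and on the logit scale (adjusted limma p = 0.0161), but not in females alone (adjusted limma p = 0.1075). Gm12853, a long non-coding RNA, was likewise at 0 in all 4 hKO libraries, against 1.35, 2.86, 0.794 and 0% in WT (difference -1.25 points, SE 0.49, adjusted limma p = 0.0424), a call lost when any of 6 of the 8 libraries was left out (adjusted limma p = 0.0659 to 0.0764), with a replicate block (adjusted limma p = 0.0517) and without the trend in the spread (adjusted limma p = 0.0554).

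Of the models at 0 in all 4 WT libraries, Gm5901 had 0, 0, 0 and 7.69% in hKO, Gm17401 had 0, 0, 1.03 and 6.06%, and Gm16000 had 0, 5, 0 and 0%. None passed (adjusted limma p = 0.189 to 0.276), and each hKO mean rested on 1 or 2 libraries. Gm17401 was also nearly free of mCG, with 0, 1.14, 1.55 and 9.30% in hKO and 0% in all 4 WT animals. Gm6620, Gm13126 and Gm17298, the first by number of the 5 models at 0 mCA in every library, differed in mCG. Gm13126, a pseudogene, had an mCG of 90 to 100% across the 8 libraries, so a model at 0 in one context was close to fully methylated in the other. Gm17298 had an mCG of 0% in 6 of 8 libraries. The 3 lowest models above 0 each had mCA in 1 or 2 libraries only. Gm2108 had 0.303% in hKO animal 1 and 0.474% in WT animal 4, Gm13128 (Pramel30) had 0.990% in hKO animal 2, and Gm88 (Lrrc73) had 1.04% in WT animal 3.

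Spread between animals was wider for the models than for other genes. The median SD of mCA over 4 animals was 0.258 points in hKO and 0.447 points in WT, against 0.182 and 0.337 points for other genes. As a percentage of the mean it was 23.8% in hKO and 23.1% in WT for the models, and 17.6% in hKO and 17.8% in WT for other genes. The gap was present at matched levels. For models with a mean over 8 libraries of 2 to 3%, the relative SD was 16.1% in hKO and 16.4% in WT, against 11.7% in hKO and 12.9% in WT for other genes at that level. The exception was the bin below 0.5%, where the hKO value was 46.5% for the models and 48.2% for other genes. Zeros were also commoner in the models in every bin below 4%: from 0.5 to 1%, 27.6% of models had a 0 in at least 1 library, against 9.04% of other genes. At 4% and above the order was reversed, 2.22% of models against 4.01% of other genes. The share of models called lower was 86.8% from 2 to 3%, against 95.6% of other genes at that level. Whether this difference in calls comes from spread was not tested.

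**Figure D5:**
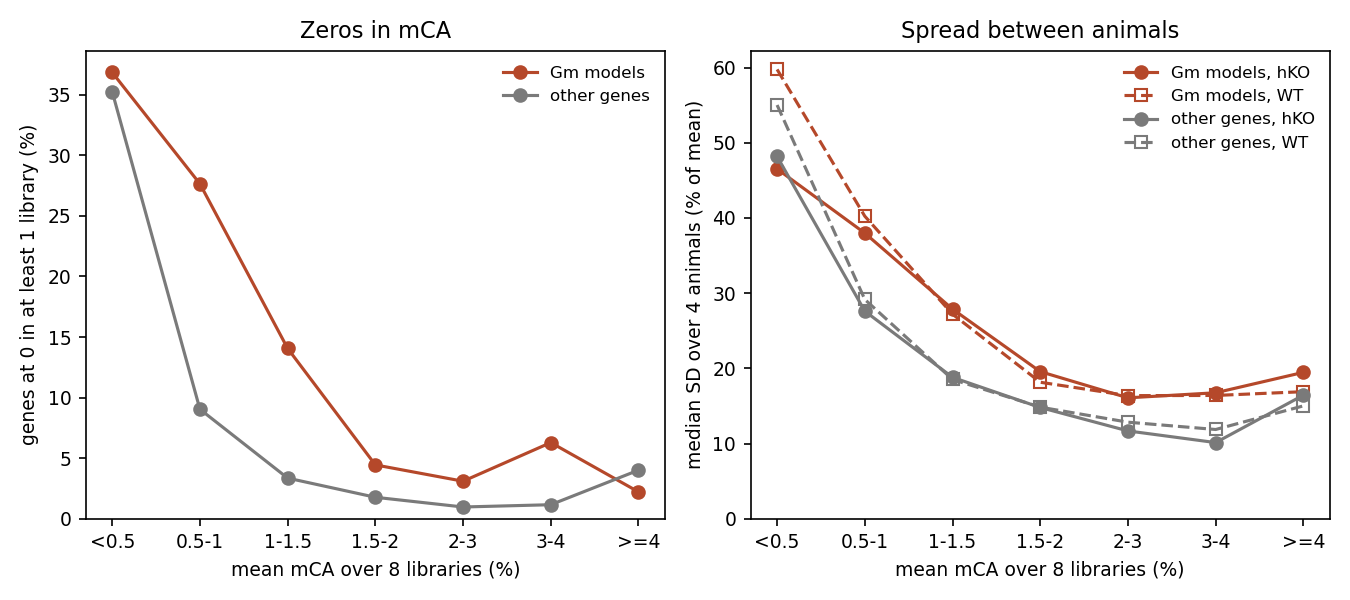
Share of genes at 0 mCA in at least 1 library (left) and median SD over 4 animals as a percentage of the mean (right), by mean mCA over 8 libraries, for the models and other genes; circles with solid lines are hKO and open squares with dashed lines WT in the right panel. Both measures are highest in the lowest bin, and from 0.5 to 4% mCA the models lie above the other genes.

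The steadiest models with a WT mean of at least 1% were Gm11680, Gm1661 and Gm7457. Gm11680 had 2.46, 2.62, 2.80 and 2.84% in hKO, against 4.62, 4.70, 4.89 and 4.72% in WT (difference -2.05 points, SE 0.23, adjusted limma p = 0.000692). Gm1661 (Armh1, protein-coding) had 1.67, 1.93, 2.00 and 1.84% in hKO, against 3.40, 3.08, 3.39 and 3.25% in WT (difference -1.42 points, SE 0.18, adjusted limma p = 0.000692). In both models the range within a genotype was smaller than the gap between genotypes.

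Gm7457 is a long non-coding RNA that overlaps St8sia1, which encodes a sialyltransferase of ganglioside synthesis. It had 2.25, 2.36, 2.23 and 2.43% in hKO, against 3.97, 4.20, 4.17 and 3.64% in WT (difference -1.68 points, SE 0.21, adjusted limma p = 0.000692). The hKO means of these 3 were 56.6, 56.7 and 58.01% of WT, near the median over the models, and with library medians made equal the differences turned to 0.08 points in Gm11680, 0.05 in Gm1661 and 0.16 in Gm7457 (adjusted limma p = 0.967 to 0.989).

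The largest spreads were in Gm5420, Gm13583 and Gm13871. Gm5420, a long non-coding RNA and the model with the highest mCA, had 8.82, 11.7, 15.7 and 9.43% in hKO, against 36.6, 20, 10.5 and 20.4% in WT. The lowest WT value lay within the hKO values. At this level the fitted trend gave an SE of 79.2 points, far above the SDs of 3.11 points in hKO and 10.8 points in WT. With it the difference of -10.5 points was not resolved, and without the trend it did not pass either (adjusted limma p = 0.0742). Gm13871 had 1.54, 0, 0 and 0% in hKO, against 15.4, 0, 0 and 0% in WT, so that its means rested on 1 library of each genotype. Gm13583 had 2.06, 1.42, 10 and 3.77% in hKO, against 22.2, 12.2, 7.01 and 3.08% in WT, with overlapping groups (adjusted limma p = 0.127). Gm13330, the second highest in mCA, was far steadier, with 7.45, 8.80, 10.4 and 8.61% in hKO, against 13.9, 11.9, 13.8 and 13.1% in WT; its groups were separate, yet it did not pass (difference -4.35 points, SE 4.27, adjusted limma p = 0.369), and it passed without the trend in the spread (adjusted limma p = 0.000606). Gm12676, the third highest, had 6.15, 11.8, 12.6 and 3.33% in hKO, against 12.0, 12.8, 11.7 and 10% in WT, with overlapping groups (adjusted limma p = 0.396).

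By RefSeq name, 1329 models matched a symbol and 288 a synonym, and 1121 had no match. The class of the match went with level. The 777 long non-coding RNAs had the highest median mCA, 1.58% in hKO and 2.89% in WT, and 618 of them (79.5%) were called lower, where 72.1% of all genes tested were. The 559 protein-coding models had 0.958% in hKO and 1.73% in WT, with 279 (49.9%) called. The 216 pseudogenes had 0.691% in hKO and 1.18% in WT, with 72 (33.3%) called and 26.4% at 0 in at least 1 library. The 53 transcribed pseudogenes lay between, at 1.06% in hKO and 1.80% in WT. Unmatched models had 1.34% in hKO and 2.42% in WT. The 72.1% takes in genes of every level, and calls went with level. Among other genes, 1.23% were called lower at a mean mCA below 0.5%, 39.9% from 0.5 to 1% and 95.6% from 2 to 3%. The classes were not compared at matched level, so their shares are not read against the 72.1%. Median relative levels of the long non-coding, coding, pseudogene and unmatched classes were 55.5, 58.4, 62.1 and 56.4%, in the reverse order of level. Relative SD in WT was 18.4% in long non-coding RNAs, 31.3% in coding models and 41.0% in pseudogenes.

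The number in the symbol separated the models less. Median mCA was lowest for Gm5000 to Gm9999, at 0.982% in hKO and 1.78% in WT (350 models), and in WT it was highest for Gm11000 to Gm14999, at 1.40% in hKO and 2.61% in WT (971 models).

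Density of CG sites, taken from the authors' per-base columns, had a median of 16.8 per kb in the models and 20.96 per kb in other genes, while the density of CA sites was 153 per kb in both. With the models cut into 4 equal groups by CG density, those with the fewest CG sites (1.38 to 11.3 per kb) had an mCA of 0.992% in hKO and 1.71% in WT. The third group (16.8 to 24.0 per kb) had 1.56% in hKO and 2.79% in WT, and the densest group 1.39% in hKO and 2.60% in WT. Zeros were commonest in the 2 outer groups, 15.8% of models in the lowest and 18.3% in the highest, against 8.63 and 6.58% between them.

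A model's level went with that of a nearby measured gene. Neighbours came from the RefSeq table for 1323 models, of which 422 overlapped a measured gene. Where a model overlapped one, the gene compared was the nearest that did not overlap it. The Spearman correlation of WT mCA between a model and this neighbour was 0.619 (Pearson 0.553). It was 0.694 over the 901 models that overlapped no measured gene and 0.409 over the 422 that did. For 16075 other genes it was 0.417, with 0.433 over the 13114 without overlap and 0.338 over the 2961 with overlap. Nearby rows share libraries and can share bases, and these values are descriptions. For models without overlap, median mCA in 4 equal groups of rising WT level of the neighbour was 0.445, 0.931, 1.42 and 1.83% in hKO, and 0.553, 1.74, 2.60 and 3.25% in WT. In 336 of the 901 the neighbour was itself a Gm-number model. The relative level did not follow the neighbour in the same way: its Spearman correlation was 0.024 over 917 models where both had a WT mean of at least 1%.

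At CG sites the models differed little between genotypes. The median over the models was 75.1, 73.7, 77.9 and 75.4% in the hKO animals, against 76.7, 76.1, 80.8 and 78.1% in the WT animals. The groups overlapped across the sexes, and animal 3 was the highest in both. Within each sex, which coincides with sequencer, both hKO animals were below both WT animals. The median was 74.4% in hKO and 76.4% in WT within males, and 76.6% in hKO and 79.4% in WT within females. No test was made of these medians. None of the 2738 models passed in limma over 21060 genes (smallest adjusted p = 0.195), and none of all genes did. At an unadjusted limma p below 0.05, 11.5% of the models were lower, against 10.1% of all genes, and 29 (1.06%) were higher, against 0.337% of all genes. All 4 hKO values lay below all 4 WT values in 4.78% of the models, against 4.94% of all genes, and above them in 3 models (0.11%), against 0.057% of all genes. A lower mean in hKO was found in 2079 models (75.9%), against 84% of all genes. The median hKO level was 97.3% of WT.

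Most models were highly methylated at CG sites, with 37.5% of them between 70 and 80% and a further 35.4% between 80 and 90% in WT. Only 52 had a WT mean mCG below 20%, and their mCA was also low, 0.529% in hKO and 0.626% in WT, with a median CG density of 65.6 per kb. In 31 of these 52 (59.6%) at least 1 library was at 0 mCA. The 226 other genes below 20% were alike, with an mCA of 0.489% in hKO and 0.671% in WT and 64.5 CG sites per kb. Of them, 45.6% had a library at 0 mCA. The lowest models were Gm16000 and Gm16586, at 0% mCG in all 8 libraries, and Gm17460, at 0% in all 4 hKO animals and at most 0.971% in WT. At the top, Gm5420 and Gm5828 were at 100% mCG in all 4 hKO animals and in 3 of 4 WT animals. The Spearman correlation of WT mCA with WT mCG was 0.239 over the models and -0.0019 over other genes, a description.

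The largest mCG falls with separate groups did not pass. Gm9881, also among the lowest mCA ratios, had an mCG of 0, 5.26, 33.3 and 0% in hKO, against 40, 50, 42.9 and 50% in WT (difference -36.1 points, SE 6.68, adjusted limma p = 0.364). Its 3 lowest hKO animals were far below every WT animal. Without hKO animal 3, the one nearest to the WT animals, the difference of -44.0 points passed (adjusted limma p = 0.00649). With any other animal left out it did not pass (adjusted limma p = 0.291 to 0.795). Gm16522, listed in RefSeq as Pramel39, a member of the Prame-like family, had 11.1, 34.8, 33.3 and 0% in hKO, against 76.9, 42.9, 38.5 and 75% in WT (difference -38.5 points, SE 10.4, adjusted limma p = 0.476). Gm1977 had 37.5, 43.5, 46.7 and 0% in hKO, against 51.7, 76.9, 100 and 50% in WT (difference -37.8 points, SE 12.5, adjusted limma p = 0.476). In both, the highest hKO animal was close to the lowest WT animal.

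The 3 models with all hKO values above all WT values in mCG were Gm4181, Gm17548 and Gm1975. Gm4181 had an mCG of 82.4, 86.0, 80 and 92.3% in hKO, against 75.7, 68.1, 69.1 and 66.7% in WT (difference 15.3 points, SE 2.88, adjusted limma p = 0.376). Its mCA was 1.27% ± 0.550 in hKO and 2.52% ± 1.02 in WT (SD, n = 4 each). That fall passed (adjusted limma p = 0.0395), so the 2 contexts differed in opposite directions, although the mCG difference did not pass. Gm17548 had 70, 73.3, 80.9 and 91.7% in hKO, against 67.2, 67.2, 69.6 and 62.9% in WT (difference 12.3 points, SE 4.13, adjusted limma p = 0.476). Its lowest hKO animal was just above its highest WT animal. Gm1975, listed as Cstdc6, a cystatin domain gene, had an mCG of 88.6, 86.5, 88.7 and 86.2% in hKO, against 85.3, 80.3, 85.5 and 84.7% in WT (difference 3.54 points, SE 1.67, adjusted limma p = 0.476). Its mCA fell to 0.869, 0.738, 0.993 and 0.814% in hKO, against 1.36, 1.46, 1.75 and 1.53% in WT (adjusted limma p = 0.00193).

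In 11 pairs of models both rows held the same 16 values, and in each the shorter symbol is the start of the longer one, as in Gm1045 and Gm10451. Over all gene rows with complete values, 79 of 82 groups of equal rows had this form. Which of the 2 loci such values belong to was not tested, and the models hold 2727 distinct sets of values. Without the 11 shorter names, 1729 models were lower and 2 higher in mCA.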

How the data were processed

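Bisulfite libraries of cortex from 4 hKO and 4 WT mice were analysed from a deposited table with 1 row per gene. Per the submitters' processing notes, BS-Seeker2, bedtools and the mm9 genome were used; versions, filters and the interval measured per gene are not stated there. Values deposited by the authors are the fraction of methylated cytosines per gene and library, and were multiplied by 100. Other deposited columns give the authors' group means per base, whose ratio to the mean fraction of 4 animals was taken as site density. No counts or coverage accompany the values, so no coverage minimum or counting interval was applied.

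A second deposited table gave the CC fraction per shallow library, averaged per animal with equal libraries counted once. Models were rows named Gm and digits with 16 values. The members and lists were chosen with earlier results of these data known. Differences were tested with limma 3.58.1 (R 4.3.3; lmFit, eBayes with trend, no covariate) on percent, with Benjamini-Hochberg adjustment over all rows; the method was tested on simulated data. Replicates are separate animals. Named models were the 6 largest falls and up to 5 rises among models that passed in mCA with separate groups, the 4 lowest ratios among such models and the 4 highest whatever their p (WT mean of at least 1%), and 3 each for highest and lowest level, zeros, spread and mCG. RefSeq (GRCm38.p6) gave names, which genes neighbour or overlap each other, and the promoter windows with their coordinates; no measured value was placed by it. Zeros were kept as deposited. Alternatives were sex or replicate block as covariate, a logit scale, library medians scaled or subtracted, a filter on low values, no trend, each sex, and each animal left out. Python 3.11.15 with pandas 2.3.3 was used.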

Additional observations from a re-analysis of the deposited data

Results flagged for a closer look

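Groups of 4 animals were searched for a library far from the other 3 by Dixon's criterion, over 100 groups from the library summaries and the named models. It marked 19, where chance marks about 1 in 20. Many marked groups hold 3 equal values, for which any other value is marked.

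The share of models at 0 mCA was 8.58% in hKO animal 4, and the median mCA of the models was 2.70% in WT animal 3, each apart from the other 3 animals of its genotype. A lone value above 3 zeros was marked in the mCA of Gm11239 (0.369%, hKO animal 2), Gm11358 (4%, WT animal 4), Gm13128 (0.990%, hKO animal 2), Gm88 (1.04%, WT animal 3), Gm5901 (7.69%, hKO animal 4) and Gm16000 (5%, hKO animal 2). The same held in both genotypes of Gm2108, at 0.303% in hKO animal 1 and 0.474% in WT animal 4, and of Gm13871, at 1.54% in hKO animal 1 and 15.4% in WT animal 1. Gm13535 (13.3%, WT animal 4) and Gm17401 (6.06%, hKO animal 4) each had a high value over low ones.

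In mCG the marked values were 33.3% for Gm9881 in hKO animal 3, 90.5% for Gm13126 in hKO animal 2, 80.3% for Gm1975 in WT animal 2, 80% for Gm5420 in WT animal 4 and 75% for Gm5828 in WT animal 1.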

How the results depend on the processing

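The count of models lower in mCA (1736) stayed within 1.5 times under sex as covariate, the logit scale, the filter, no trend and males alone, and each animal left out gave 1548 to 1832. It was 1086 with females alone, 595 with library medians subtracted and 0 with them scaled equal. The 2 higher models became 616, 0, 1 with the filter, 1 without the trend, 14 in males, 6 in females, 1 without models holding a 0 (chosen after seeing the data) and 1 to 9 with an animal left out (9 without WT animal 3). In mCG, 0 lower and 0 higher became 1 higher in females, and 0 to 1 in each direction with an animal left out. No share over all genes is given beside these counts, so none of them is read as particular to the models.

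Replicate numbers follow accession order. Same-numbered animals are of 1 sex, and 3 of the 4 pairs share a number in their titles, but the labels do not say that this marks a litter. Over all genes same-numbered animals correlated at 0.037 to 0.114 in their mCA deviations (2 of 4 hKO animals best with their own number) and at 0.039 to 0.120 in mCG (3 of 4), not above 0.1 in every pair, so the numbers were not taken as pairing; a hint of pairing from the data remains. A replicate block gave 1836 lower and 3 higher models in mCA, and 0 of either in mCG, although the median mCG was lower in the hKO animal of all 4 numbers.

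The median ratio of 56.6% was 53.4% after CC subtraction and ranged from 53.7% (without hKO animal 3) to 60.4% (without WT animal 3). Median SDs ranged from 0.203 to 0.269 points in hKO and 0.332 to 0.461 points in WT with an animal left out.

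With medians scaled equal, differences in mCA turned to 0.10 points in Gm16933, 2.07 in Gm13330, 2.49 in Gm12676, 0.0818 in Gm11680, 0.0523 in Gm1661 and 0.16 in Gm7457. Females alone gave -0.0769 in Gm11358, 1.85 in Gm13583, and 0 in Gm16000 and Gm13871; males alone gave -0.0362 in Gm11766, and 0 in Gm5901 and Gm17401. With an animal left out the difference ranged from 0 to 2.56 in Gm5901, 0 to 1.67 in Gm16000 and -4.74 to 0.38 in Gm13871, each of which rests on few libraries above 0. The cause of these changes was not tested, beyond the fewer animals each fit holds. Coverage per gene is unknown, which limits what zeros and extreme ratios can show.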
